A study of Mus musculus with 48 samples.

Results

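Liver spheroids placed in the anterior chamber of the mouse eye attach to the iris, so that an explant dissected 2 months after transplantation holds graft and iris tissue together. To read the side of the explant that does not come from hepatocytes, genes were selected on their liver and iris levels, namely those whose mean over 3 livers was below their mean over 3 naïve irises. Levels for this step were in TPM, counts per gene length scaled to the library. By this rule 21471 of the 46517 genes in the count table were taken, and they are called iris-side genes here. A further 7590 genes had an iris mean at or below the liver mean, and 17456 genes were at 0 TPM in every iris and every liver. Just inside the limit lay Gm6548 with 11.3 TPM in both tissues and Mrpl10 with 154 TPM in both, and just outside it lay Lasp1 with 50.0 TPM in both and Fam234a with 79.9 TPM in both. Among genes of at least 10 TPM, 72 lay within 2% of the limit on its inner side and 72 on its outer side.

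All samples carried the genotype label WT Albino and the strain C57BL/6N. The explants were engrafted spheroids together with the iris around them, from recipient eyes at 2 months, and the irises came from eyes without a graft. Livers, hepatocyte preparations and in vitro spheroids came from donor mice, and the spheroids were made from primary liver cells enriched for hepatocytes, which can carry other liver cell types along. There were 5 explants (numbered 1, 2, 4, 5 and 6), 3 irises, 3 livers, 3 hepatocyte preparations and 2 in vitro spheroid samples, each sequenced as 3 technical libraries with Smart-seq3 chemistry on bulk RNA. The study's methods describe adult mice of both sexes. The labels used here give no age, sex or hour of collection for single samples, and they do not say whether explants or irises came from separate animals, so p-values measure the spread between these samples only.

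The iris is a thin muscular and pigmented diaphragm. It holds sphincter and dilator smooth muscle, a pigmented epithelium of neural origin, a stroma of fibroblasts and melanocytes, many vessels, nerve fibres and resident macrophages that lie near its surface. It borders the lens behind and the cornea in front. A graft on it brings hepatocytes and can bring cholangiocytes, Kupffer cells and stellate cells, and it is entered by vessels of the host. Blood cells, immune cells and stroma are therefore shared between host and graft, and their genes can pass or fail the rule by small margins. In bulk samples fewer cells of a type and less RNA per cell cannot be told apart.

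Summed counts per sample ran from 2718518 to 6789648, with 5449589 to 6789648 in explants and 4596550 to 4881817 in irises. Iris-side genes took 80.2 to 80.4% of the counts of the irises and 35.1 to 37.8% of those of the livers. In explants 1, 2, 4, 5 and 6 they took 76.8, 71.5, 76.3, 73.8 and 67.4%, so that explant 6 had the smallest share and explant 1 the largest. All 15 genes of a hepatocyte list, among them the albumin gene, lay outside the rule and all 15 were called higher in explants. Explants 2 and 6 stood apart from the other explants in many of the genes below, and the counts of calls are given also without them, an alternative added after the values were seen.

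Of the iris-side genes 12910 had enough counts to be tested and 8561 did not. A gene was called when its edgeR quasi-likelihood test gave a Benjamini-Hochberg adjusted p under 0.05 over all 16764 genes tested and its fold change passed 2 (1 on the log2 scale). In explants 112 iris-side genes were higher and 52 were lower, which is 0.868% and 0.403% of the iris-side genes tested. Over all genes tested the shares were 6.16% higher and 0.316% lower, and over the 3854 tested genes outside the rule they were 23.9% higher and 0.0259% lower. Iris-side genes thus made up 10.9% of the higher calls and 98.1% of the lower calls. The irises were used both to choose the genes and to test them, and selection on a high iris mean favours lower calls. For any gene of the rule, a simple mixture of iris and liver profiles also lies below the iris in TPM. The part of such a mixture in the lower calls was not tested, while the higher genes lay above both profiles. The remaining 12746 iris-side genes tested were not called, and the median log2 fold change was -0.05 over the iris-side genes tested against 0.01 over all genes tested.

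The counts depended on the samples at hand. Without explant 2 they were 59 higher and 41 lower, without explants 2 and 6 they were 64 and 51, and without iris 1, 2 or 3 they were 16 and 28, 21 and 25, or 20 and 27. When the rule was set on 1 iris and the test run on the other two, 18 to 24 genes were higher and 25 to 29 were lower, close to the counts on 2 irises alone. Scaling by library size alone gave 104 higher and 84 lower, a larger lower share than with the scaling factors used. Every explant lay above every iris for 810 of the 12910 iris-side genes tested and below for 1430. Over all 16764 genes tested this held for 2383 (14.2%) and 1466 (8.74%). Of the called genes, 110 of 112 and 48 of 52 had no overlap between the groups. The exceptions were Ccn1 and Lat2 among the higher genes, and Crybb2, Cryba1, Agtr2 and Fndc11 among the lower.

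The called genes were not spread evenly over the explants. Explant 6 had the highest level of 81 of the 112 higher genes and explant 2 of 19, against 6, 4 and 2 in explants 4, 5 and 1. Explant 4 had the lowest level of 57 of them. The median log2 ratio of these genes to the iris mean was 1.07, 1.70, 1.03, 1.20 and 2.07 in explants 1, 2, 4, 5 and 6. For the 52 lower genes the explants lay closer together, with medians from -1.34 to -1.13. The share of iris-side counts was also smallest in explants 6 and 2. Its part in these levels was not tested.

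The largest change was that of Krt20, a keratin of intestinal and urothelial epithelium, at 4.18, 6.94, 3.76, 7.29 and 9.81 normalised CPM, which are counts scaled to the library's effective size, in explants 1, 2, 4, 5 and 6. In all later sentences values of explants follow this order, and levels are CPM unless TPM is named. The irises had 3 reads of it in all against 185 in the explants, a ratio of 31.3 with a 95% interval of 10.5 to 153 for counting error only. It was at 6.53 TPM in the in vitro spheroids and at 0 in liver. Top2a, the topoisomerase of dividing cells, was at 8.73, 24.02, 8.99, 12.5 and 40.9 CPM in explants and 1.59, 1.06 and 1.998 in irises, 12.03-fold higher (log2 3.59 ± 0.67 SE, adjusted p = 0.00898). Explants 2 and 6 were the highest for Top2a, and no explant reached down to the irises. Ccn5, a matricellular protein, was at 10.2, 9.38, 3.92, 11.6 and 24.6 CPM against 1.39, 1.49 and 0.799 (9.59-fold, adjusted p = 0.00975). It was close to 0 outside the eye, with 0.362 TPM in liver and 0.209 TPM in spheroids. The other genes among the 12 with the largest change were the cell division genes Ckap2, Dlgap5, Prc1 and Tpx2, the prion-like gene Prnd, the lysozyme Lyz1, the chemokine Ccl2, the collagen-binding integrin subunit Itga2 and the claudin Cldn4, with log2 fold changes from 2.55 to 3.50. Lyz1 shares sequence with Lyz2 and its reads may belong in part to that gene, and Prnd shares exons with Prn.

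**Figure D1:**
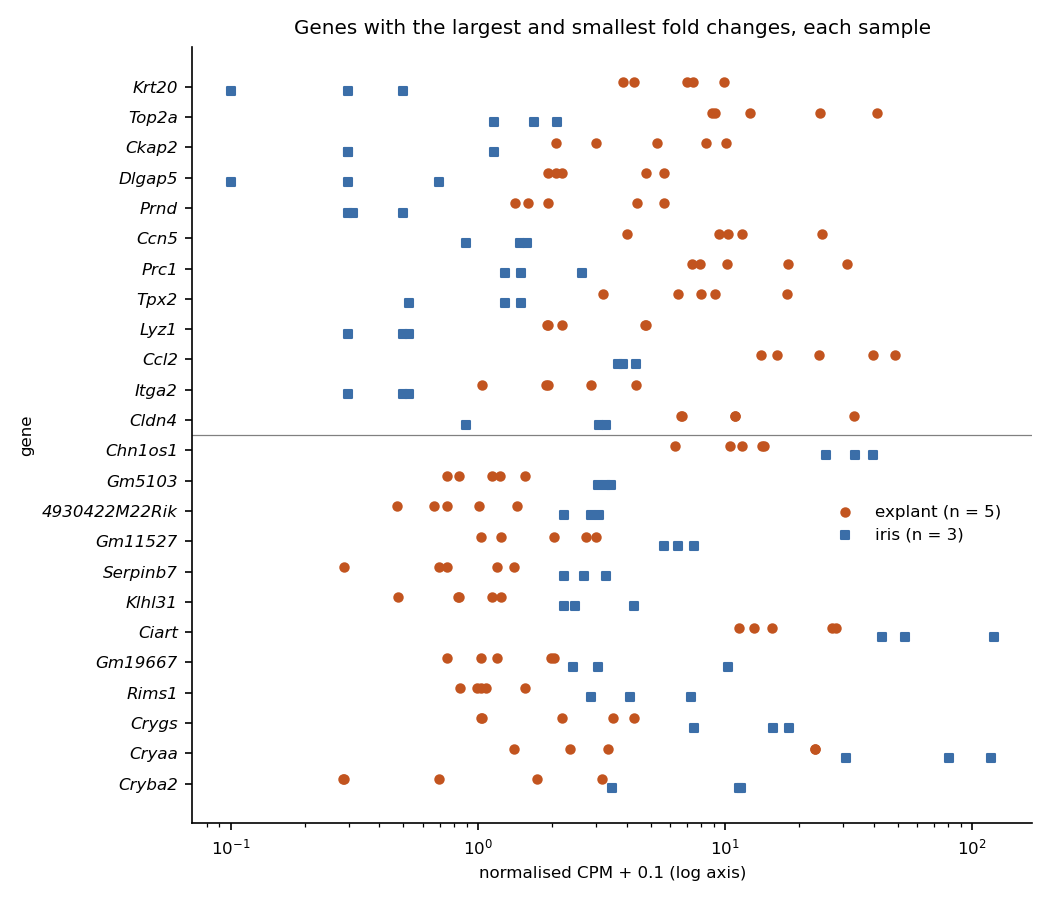
Normalised CPM plus 0.1 on a log axis for the 12 iris-side genes that rose most and the 12 that fell most among those without overlap, with explants as circles (n = 5) and irises as squares (n = 3). For each gene all explants lie on 1 side of all irises by that choice, and the spread among explants is wide for Top2a (8.73 to 40.9 CPM in explants) and Cryaa (1.30 to 23.1 CPM in explants).

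Macrophage genes were among the most frequent of the higher genes. The list held 22 markers, of which 12 were iris-side genes and 7 were higher in explants, with none lower and a median log2 fold change of 1.45. All 12 had a positive value. The other 10 markers were left out by the rule, and of these 3 were called higher, against 23.9% over all tested genes outside the rule. Adgre1, which encodes the macrophage surface protein F4/80, was at 46.03, 141, 45.6, 70.7 and 193 CPM in explants 1, 2, 4, 5 and 6 and at 18.8, 24.01 and 20.8 in irises (4.67-fold, adjusted p = 0.0248). Itgam, the integrin chain CD11b, was at 14.7, 27.6, 25.5, 9.67 and 36.1 CPM against 4.76, 7.01 and 6.195 (3.78-fold, adjusted p = 0.0189). In both genes explants 2 and 6 were the highest, and the lowest explant still lay above every iris. Fcgr1 and Fcgr3, receptors for the constant part of IgG, had log2 fold changes of 1.89 and 1.61. The leukocyte tetraspanin Cd53 had 1.54, the lysozyme Lyz2 1.33 and the lipopolysaccharide co-receptor Cd14 1.27. Csf1r, the receptor that macrophages need to survive, was 2.64-fold higher in mean with an adjusted p of 0.0858, so not called, and the scavenger receptor Cd163 and the efferocytosis receptor Mertk had 0.48 and 0.10. Summed over the 12 genes, the level was 585, 1205, 506, 706 and 1457 CPM in the explants and 379.9, 354 and 328 in the irises, without overlap. Without explant 2 there were 2 calls in the list, without explants 2 and 6 there were 3, and without any single iris there were 0, with the median between 0.85 and 1.65 in every alternative run. With all samples kept, limma-voom as the test gave 1 call in the list, and scaling factors from iris-side genes only gave 3.

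Other genes of myeloid cells that were in no list rose as well, and they are named here after their values were seen. C3ar1, the receptor for the complement fragment C3a, was at 65.5 ± 37.3 CPM (mean ± SD, n = 5) in explants and 16.1 ± 1.96 (n = 3) in irises, 4.05-fold higher. Ms4a7, a membrane protein of macrophages, was at 61.3 ± 32.8 against 18.2 ± 2.27 CPM, and the lipoprotein-sensing receptor Tlr1 at 9.72 ± 5.02 against 1.84 ± 0.271 CPM. Ms4a4c, Ms4a6b and Ms4a6c of the same family, the platelet-activating factor receptor Ptafr and the lectin receptor Clec4n were also called. On the iris side, none of the 9 tested genes of lipid-laden and osteoclast-like macrophages and none of the 15 tested lysosomal genes was called. Their median log2 fold changes were 0.12 and -0.04 (-0.08 and -0.09 without explants 2 and 6). At an adjusted p under 0.05 without the fold limit both counts were 0. Outside the rule 7 further genes of the first list were tested, of which 4 were higher, and 5 of the second, of which 1 was higher. The share called higher over all tested genes outside the rule was 23.9%.

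Of the class II antigen presentation and dendritic cell list, 5 iris-side genes were tested and 2 rose, with a median log2 fold change of 1.00. Without explants 2 and 6 the median was -0.06 and 2 of the 5 genes were above 0. H2-Eb1, a chain of the class II molecule I-E, was at 201, 329, 118, 212 and 448 CPM in explants and 97.9, 109 and 80.3 in irises, and H2-Aa, a chain of I-A, at 250.2, 379, 161, 250.1 and 504 against 135, 144 and 108. Their fold changes were 2.73 and 2.39, each with an adjusted p of 0.0359. Explant 4 was the lowest for both and lay close to the highest iris, and without explants 2 and 6, without explant 2 alone or without any single iris, neither gene was called. The list had 1 call without explant 5 or 6. Cd4, the co-receptor of helper T cells, was 4.34-fold higher at 5.82, 12.6, 3.92, 11.6 and 18.3 CPM against 1.19, 3.399 and 2.598 (adjusted p = 0.0376), a call lost without explant 2, explant 5 or any single iris, and without explants 2 and 6 together. The only other T cell gene on the iris side was Foxp3 with a log2 fold change of 0.25. The list's remaining tested genes, such as those of the CD3 complex, had more signal in liver than in iris and were left out by the rule. Of these 10 genes 0 were called higher and 0 lower, against 23.9% called higher over all tested genes outside the rule. None of the 6 tested iris-side genes of neutrophils and mast cells was called.

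Among chemokines, which draw leukocytes along gradients, 12 iris-side genes were tested, 1 rose and 1 fell. Ccl2, the main attractant of monocytes, was at 16.2, 23.8, 13.9, 39.6 and 48.5 CPM in explants and 3.77, 4.25 and 3.597 in irises, a 7.31-fold difference (adjusted p = 0.00527). The in vitro spheroids held it as well, at 142 TPM there against 10.3 TPM in irises and 69.3 TPM in explants. Its partner chemokine Ccl7 and its receptor Ccr2 had log2 fold changes of 2.07 (adjusted p = 0.0664) and 1.68 (adjusted p = 0.0884). Ccl8 had a log2 fold change of 3.29 (adjusted p = 0.0583). Ccl11, the eotaxin made by stromal cells, was lower at 6.19, 8.44, 4.58, 4.61 and 7.96 CPM against 19.8, 9.35 and 11.6 (log2 -1.10, adjusted p = 0.0439). The explants were lower than every iris for Ccl11 while they were higher for Ccl2. The list had 0 lower calls without explant 1, 2, 4 or 5 or any single iris, and 1 without explant 6. It had 5 higher calls without explant 1, 4 without explant 4 and 1 without each of the others, and without explants 2 and 6 together it had 1 higher and 1 lower.

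Interferons, made upon infection and by activated lymphocytes, act through factors that bind short response elements in promoters, and induce guanylate-binding proteins, immunity-related GTPases and oligoadenylate synthetases. Of 13 iris-side interferon-induced genes 5 were higher and 0 lower, with a median log2 fold change of 0.90. Among these were Igtp, Gbp2, Gbp3 and Oas1a. Upstream sequence (RefSeq, build GRCm38.p6, printed 5′ to 3′ on the gene's strand and ending at the base before the transcription start) is shown for these 4 because their promoters share the core of the interferon-stimulated response element, GAAA followed by any 2 bases and GAAA again, on either strand. Capitals mark the match, and in Gbp3 and Oas1a 2 overlapping matches form 1 run. The 4 windows are Gbp2 at chr3:142620543-142620662, plus strand, Gbp3 at chr3:142559924-142560043, plus strand, Igtp at chr11:58199436-58199555, plus strand and Oas1a at chr5:120907526-120907645, minus strand.
Gbp2: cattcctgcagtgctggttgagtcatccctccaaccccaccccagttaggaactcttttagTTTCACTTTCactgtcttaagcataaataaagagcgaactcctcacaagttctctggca
Gbp3: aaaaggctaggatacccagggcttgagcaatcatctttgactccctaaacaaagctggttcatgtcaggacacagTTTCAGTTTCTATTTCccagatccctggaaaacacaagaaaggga
Igtp: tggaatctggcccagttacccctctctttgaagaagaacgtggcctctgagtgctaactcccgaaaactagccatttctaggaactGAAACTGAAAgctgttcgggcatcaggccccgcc
Oas1a: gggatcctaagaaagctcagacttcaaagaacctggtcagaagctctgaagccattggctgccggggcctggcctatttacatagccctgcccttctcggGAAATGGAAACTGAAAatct

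The motif was chosen after the values were seen. Within 250 bases upstream of the start it was found in 2.98% of all 32851 promoters and in 3.46% of the 27025 genes they belong to. Among the 9063 tested iris-side genes that had a promoter sequence it was in 3.13%. It was in 8 of the 10 interferon-list genes with a sequence. Among the higher genes it was in 12 of 84 (14.3%), the others being Apobec3, Cldn7, Gbp5, Jaml, Oas1g, Phf11b, Tgtp1 and Tgtp2, and among the lower genes in 0 of 37. Such a match is a description of letters and not a binding site. Tgtp1 and Tgtp2, Oas1a and Oas1g, and the Gbp genes have near-identical stretches, so the split of their reads is uncertain.

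Gbp2, a guanylate-binding protein, was at 131, 273, 177, 133 and 322 CPM in explants 1, 2, 4, 5 and 6 and at 96.2, 105 and 91.9 in irises (2.12-fold, adjusted p = 0.0473), and Gbp3 at 74.8, 111, 97.9, 67.3 and 123 against 41.8, 57.4 and 42.97 (2.002-fold, adjusted p = 0.0159). The immunity-related GTPase gene Igtp was at 98.6, 158, 138, 81.4 and 256 against 60.9, 62.9 and 55.96 CPM (2.44-fold, adjusted p = 0.0361). Explant 6 was the highest for Gbp2, Gbp3 and Igtp, and every explant lay above every iris. Genes most used as readouts of type I interferon followed another order, with Ifit1 at 126, 151, 415, 101 and 115 CPM against 95.4, 119 and 102 and Mx1 at 4.91, 6.75, 25.8, 2.68 and 10.4 against 2.18, 4.25 and 2.198. There explant 4 stood far above the rest, and with log2 fold changes of 0.79 and 1.81 and adjusted p of 0.288 and 0.135 neither was called. Outside the list, the family members Gbp5, Gbp6 and Gbp9 and the synthetase Oas2 were also higher. The list had 1 call without explant 2 or without explant 6, 0 without both, 3 without explant 4, 7 without explant 5, and 0, 1 and 0 without iris 1, 2 and 3.

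**Figure D2:**
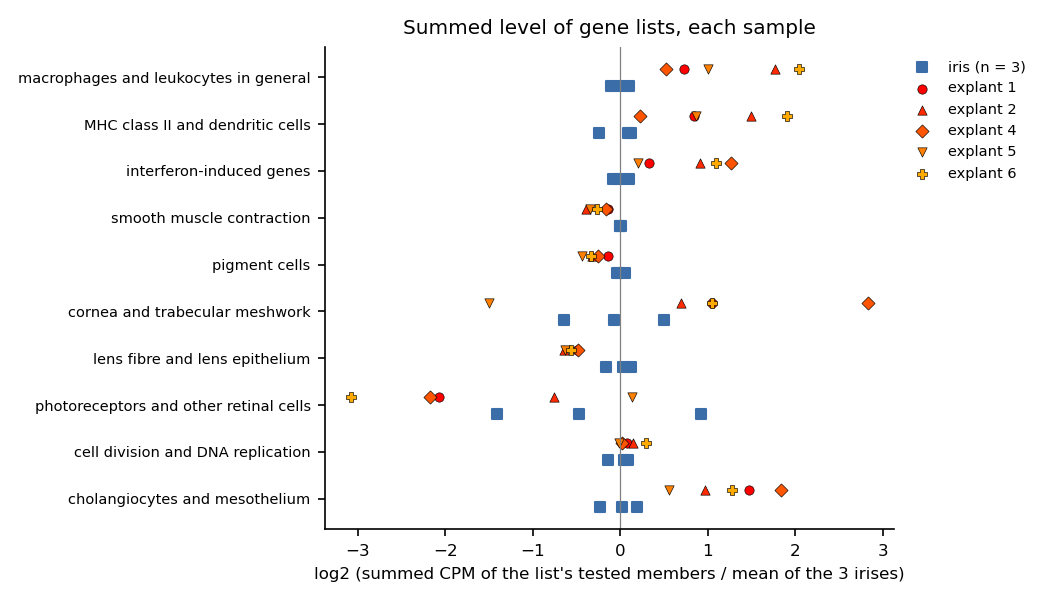
Log2 ratio of the summed normalised CPM of the tested iris-side genes in 10 lists to the mean of the 3 irises, for each explant and each iris (squares). In CPM the macrophage sum is 506 to 1457 in explants against 328 to 379.9 in irises, the lens sum is lower in explants (589 to 658 against 819 to 998), and the cornea and retina sums spread widely within both groups.

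Cell division genes form another group among the higher genes. Several members, including the cyclin B genes, were left out because liver held more of them. Of 12 tested genes left out in this way 9 were called higher, against 23.9% over all tested genes outside the rule. On the iris side 18 genes were tested, of which 3 rose. Besides Top2a these were Cdc20, an activator of the anaphase-promoting complex, at 6.55, 23.3, 5.56, 11.8 and 20.7 CPM against 4.16, 1.91 and 3.198 (4.34-fold, adjusted p = 0.0373), and the mitotic kinase gene Plk1 at 2.73, 5.44, 2.62, 3.42 and 7.404 against 0.595, 1.700 and 1.399 (3.47-fold, adjusted p = 0.0439). The minichromosome maintenance genes Mcm2 to Mcm7 of the replication helicase had log2 fold changes from 0.23 to 0.91 and none was called. The median over the 18 genes was 0.61, against 0.33 without explant 6 and 0.19 without explants 2 and 6. In no list, but called, were the spindle and chromosome genes Kif23, Sgo1, Melk, Nusap1, Ercc6l and Kif20b. The cyclin-dependent kinase inhibitors Cdkn1a and Cdkn2b were also higher, at 2.64-fold and 4.59-fold, and Cdkn1a was at 438 TPM in the in vitro spheroids against 31.8 TPM in explants. Explants 2 and 6 were again the highest for Top2a, Cdc20 and Plk1, and 1 iris-side call in the list was left without both. Without explant 2, 5 or 6 or iris 3 it was also 1, without iris 1 or 2 it was 0, and without explant 1 it was 5.

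A few epithelial genes were called. Of 6 iris-side genes of the cholangiocyte and mesothelial list, the claudin genes Cldn4 and Cldn7 were called and all 6 were positive, with a median of 1.41. Cldn4, a tight junction protein, was at 10.9, 6.57, 33.02, 6.55 and 10.9 CPM in explants 1, 2, 4, 5 and 6 against 0.793, 3.19 and 2.998 in irises (5.84-fold, adjusted p = 0.0411), and Cldn7 at 7.46, 8.26, 19.5, 11.6 and 18.7 against 4.16, 3.399 and 2.598 (3.85-fold, adjusted p = 0.0137). Explant 4 was far above the other explants for Cldn4. The keratins Krt7 and Krt19 of bile duct cells had log2 fold changes of 1.36 and 1.47 (adjusted p = 0.111 and 0.203). The epithelial transcription factors Elf3 (26.7, 24.8, 95.97, 19.2 and 37.8 CPM against 6.74, 7.65 and 10.8) and Ehf (14.6, 5.07, 25.01, 5.51 and 17.2 against 2.78, 2.97 and 3.997), in no list, were called too. Corneal epithelium, the neighbouring tissue in the dissection, also uses these claudins and factors. Its defining keratin Krt12 was at 4.18, 62.1, 358, 4.76 and 96.4 CPM in explants and 13.5, 3.399 and 73.9 in irises, with the highest level in explant 4 as well, and none of the 8 cornea and trabecular meshwork genes was called at a median of 1.27. That median was 0.64 without explant 4, and 1 gene was called lower without explant 2 or without explants 2 and 6. The cornea sum was 369.5, 289, 1276, 63.2 and 371 CPM in explants and 115, 170.4 and 253 in irises. Its part in the epithelial calls was not tested. Without any single iris neither claudin was called, and without explants 2 and 6 the list had 2 calls.

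In the matrix and stromal lists 1 or 2 genes each were called higher, against 0.868% over all iris-side genes tested. Of 27 tested genes for collagens and other matrix proteins 1 was called, Tnc, which encodes the wound-associated glycoprotein tenascin C, at 12.4, 31.3, 9.32, 16.2 and 23.9 CPM against 7.34, 5.31 and 6.79 (2.86-fold, adjusted p = 0.03705). The fibrillar collagen genes Col1a1 and Col3a1 had log2 fold changes of 0.79 and 0.95 (adjusted p = 0.00806 and 0.0296), under the fold limit, while those of Col1a2 and of the proteoglycan Dcn were 0.19 and -0.27. Of the 27 genes, 20 had a positive value. At an adjusted p under 0.05 without the fold limit 6 of the 27 were higher and 1 lower. Over all 12910 iris-side genes tested 304 were higher and 451 lower at that adjusted p. Of 16 matrix proteases and inhibitors 2 were higher, among them the aggrecanase gene Adamts4 at 7.82, 11.6, 6.54, 9.23 and 7.77 CPM against 4.76, 2.12 and 1.799 (2.95-fold, adjusted p = 0.0206). Of 16 fibroblast genes 1 was higher, Ccn1, an early target of YAP, at 249, 189.9, 96.3, 122 and 145 CPM against 60.5, 55.2 and 96.3. Ccn1 was at 144 TPM in the in vitro spheroids against 225 in explants. Of 25 growth factors, Wnt and BMP signals and inhibitors 1 was higher, the BMP antagonist Grem1, at 59.1, 62.1, 41.5, 45.1 and 104 CPM against 26.96, 23.6 and 22.2 (2.57-fold, adjusted p = 0.0165). Grem1 was nearly silent outside the eye, with 0.494 TPM in liver and 0.561 TPM in spheroids. Without explants 2 and 6, Tnc, Ccn1 and Grem1 were not called. Tnc was lost without explant 2, explant 6 or any iris, Ccn1 without explant 1, explant 2 or any iris, and Grem1 without any iris. The matrix list had 2 calls without explant 1 or 4, the growth factor list 2 without explant 5, and the protease list 1 without iris 2 or 3.

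Immediate early genes respond within minutes to cell stress, including that of dissection, and 2 of 11 on the iris side were higher. Jun, a subunit of the AP-1 factor, was at 142, 149, 102, 113 and 117 CPM against 51.2, 55.2 and 58.96 (2.26-fold, adjusted p = 0.000768), the smallest adjusted p among the higher genes, and its antisense gene Junos, whose reads cannot be told from it, was called with it. Socs3, the feedback inhibitor of cytokine receptors, was at 36.02, 107, 48.1, 51.6 and 41.5 CPM against 26.4, 22.9 and 24.8 (2.29-fold, adjusted p = 0.0489) and was highest in explant 2. The receptor gene Osmr of the same cytokine family, in no list, was at 36.6, 77.7, 42.7, 44.6 and 45.5 against 20.6, 19.8 and 23.98 with explant 2 again the highest. The orphan receptor gene Nr4a3, in no list but of the family of the list's Nr4a1, was called lower. Its level was 6.73, 6.57, 3.60, 4.17 and 5.74 CPM against 13.9, 13.6 and 11.99 (2.46-fold lower, adjusted p = 0.00775). The immediate early genes Fos, Egr1 and Egr2 had log2 fold changes of 1.44, 2.33 and 2.68 and adjusted p of 0.154, 0.1101 and 0.175. Egr1 ranged from 27.96 to 293 CPM in explants and from 8.07 to 44.4 in irises, with explant 5 and iris 3 at the top. Its part in the other calls was not tested. The list had 1 call without explant 2, 4 or 5 or iris 1 or 2, and 2 without explants 2 and 6.

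No iris-side gene was called in the lists of smooth muscle (18 tested), pigment cells (13), vascular endothelium (8), pericytes and angiogenic factors (10), transcription factors of the anterior eye (18) and hypoxia response (9). The counts in these 6 lists were also 0 without explants 2 and 6 and without any single sample. Pigment cell genes moved little but evenly, as all 13 were below 0 with log2 fold changes between -0.44 and -0.19 and 8 had an adjusted p under 0.05. Over all 12910 iris-side genes tested, 451 were below 0 at that adjusted p. Tyr, the melanin-forming tyrosinase that the albino strain carries in mutant form, was at 674, 603, 626, 541 and 557 CPM in explants and 711, 792 and 744 in irises (log2 -0.32, adjusted p = 0.0272). In smooth muscle 5 of 18 genes were below 0 at an adjusted p under 0.05, among them the contractile genes Acta2 at -0.35 and Tagln at -0.34, while Myh11 had -0.31 (adjusted p = 0.113). Iris-side genes as a whole took 67.4 to 76.8% of the counts in explants and 80.2 to 80.4% in irises. The part of that smaller share in the pigment and smooth muscle values was not tested. For vessels the von Willebrand factor gene Vwf had 0.36 and the tight junction gene Cldn5 0.32, with adjusted p of 0.351 and 0.0893. The list's other endothelial genes, including Pecam1, had more signal in liver and were left out. Of 11 tested genes left out in this way 2 were called higher, against 23.9% over all tested genes outside the rule. The eye development factor Pax6 was at 746, 631, 708, 656 and 567 CPM against 761, 791 and 769 (log2 -0.23). The 2 tested iris-side genes of lymphatic endothelium and the 2 of skeletal muscle were not called, and no gene of the B cell or red cell lists could be tested on the iris side.

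**Figure D3:**
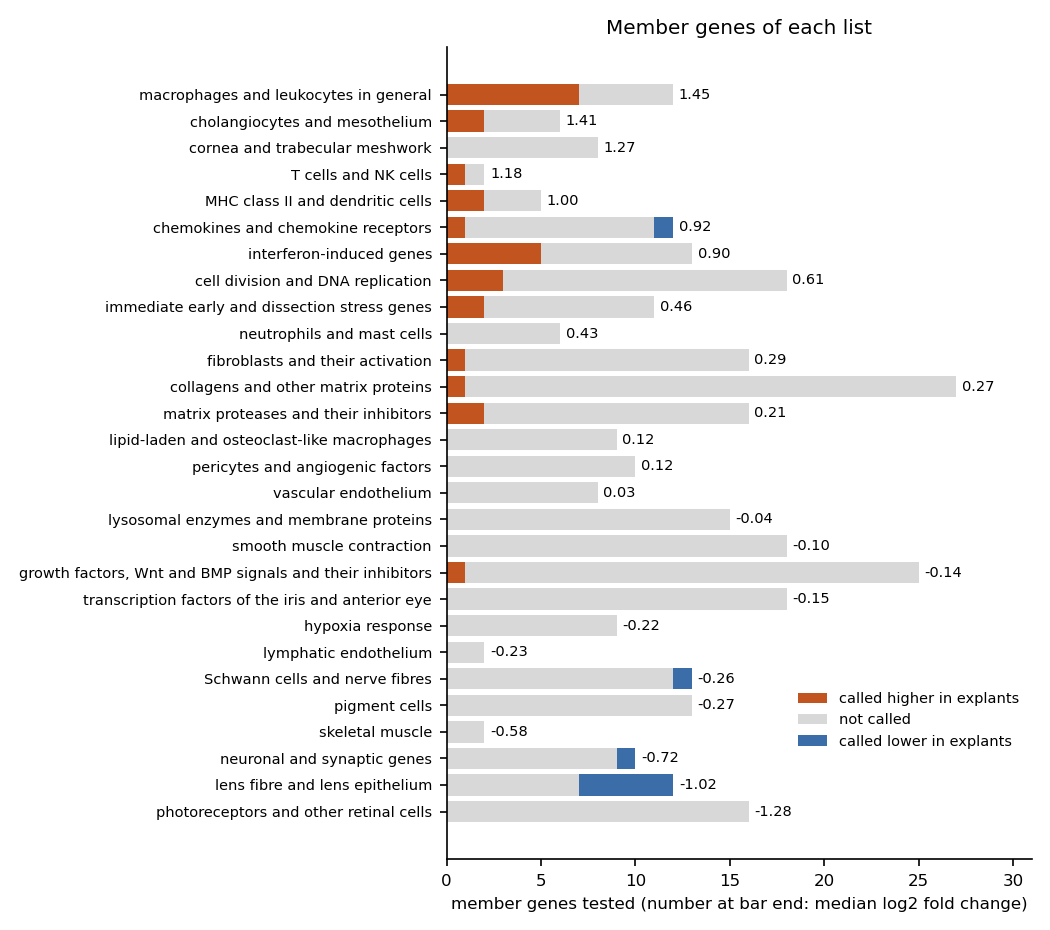
Number of iris-side genes tested in each list, split into called higher, not called and called lower in explants, with the median log2 fold change at the end of each bar. Macrophage genes have the most higher calls (7 of 12), lens genes the most lower calls (5 of 12), and pigment, smooth muscle and endothelial genes have none.

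Genes of the lens, the clear body behind the iris, gave the largest falls. Of 23 iris-side genes 12 could be tested, 5 were lower and 0 higher, and all 12 were negative with a median of -1.02. Cryaa, the lens chaperone αA-crystallin, was at 23.1, 2.25, 23.1, 3.27 and 1.296 CPM in explants 1, 2, 4, 5 and 6 and at 80.1, 119 and 30.8 in irises (7.204-fold lower, adjusted p = 0.0437). Cryba2, Crybb2, Cryba1 and Crygs, structural crystallins of lens fibres, were 7.53, 7.17, 6.35 and 5.82 times lower. For these 5 genes explants 1 and 4 were the highest explants and iris 3 the lowest iris, and for Crybb2 and Cryba1 they overlapped. Cryab, the crystallin that is also made outside the lens, made up most of the list's sum at 338, 335, 335, 320.1 and 355 CPM against 433, 438 and 437 (log2 -0.37, adjusted p = 0.00179). Without explant 5 there was 1 call, without explant 2 there were 2, and without iris 1, 2 or 3 there were 1, 0 and 5. Without explants 2 and 6 together there were 6. The median was -0.85 without explant 5, -1.59 without iris 1, -1.97 without iris 3 and -2.10 without explants 2 and 6.

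Photoreceptor and other retinal genes had a median of -1.28 over 16 tested genes, and none was called. Both rested on single samples, as the median was -0.17 without iris 3 and -2.43 without explant 5, where 3 genes were called lower. Without explants 2 and 6 the median was -1.05 with 0 calls. The retina sum was 599, 1491, 558, 2752 and 299 CPM in explants and 1820.1, 951 and 4780.0 in irises, so that the groups overlapped over a wide range, and both explant 5 and iris 3 were the highest of their group. Rgr, an opsin of the retinal pigment epithelium and in no list, was called lower at 32.6, 27.02, 32.04, 49.1 and 16.8 CPM against 56.7, 141 and 69.3 (2.81-fold, adjusted p = 0.0232). The part of adhering lens or retina in these values was not tested.

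Neuronal and nerve genes were lower in small number. Of 10 neuronal genes 1 fell and of 13 Schwann cell and nerve fibre genes 1 fell. Rims1, a scaffold protein of the presynaptic active zone, was at 1.46, 0.7505, 0.981, 0.893 and 0.925 CPM against 2.78, 4.04 and 7.19 (4.59-fold lower, adjusted p = 0.005303), and Gap43, the growth-associated protein of axons, at 5.64, 3.75, 8.99, 9.08 and 5.92 against 11.3, 18.1 and 20.98 (2.49-fold lower, adjusted p = 0.0229). Gap43 was not called without iris 2 or without iris 3, and without explants 2 and 6 each list had 1 lower call. Outside the lists, the GABA-A receptor subunit genes Gabra4 and Gabrb2 were lower, Gabrb2 at 12.2, 9.94, 11.9, 7.44 and 6.29 CPM against 18.04, 21.7 and 19.8. Chn1, a Rac regulator that guides axons of the eye muscle nerves, was at 76.1, 57.8, 83.2, 80.4 and 63.3 against 154, 188 and 159.9 CPM (2.31-fold lower, adjusted p = 0.000515). Its opposite-strand genes Chn1os1, one of the 12 smallest, and Chn1os3 were called too, and without strand information reads of the 3 genes cannot be told apart. Rgs7bp, which tethers regulators of G protein signalling to membranes, was at 28.7, 19.3, 30.1, 15.8 and 18.7 against 45.01, 59.9 and 51.96 CPM (2.32-fold lower). The remaining genes of the 12 smallest were Gm19667, Klhl31, Serpinb7, Gm11527, 4930422M22Rik and Gm5103, with 2.34 to 10.2 CPM for Gm19667 in irises as the highest range among them.

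Genes of the circadian clock were called in both directions, which was noticed in the values and is not independent of them. In the clock the factors BMAL1 (gene Arntl) and CLOCK or NPAS2 bind E-boxes and drive the period, cryptochrome, D-box and repressor genes, whose products then stop that drive, so the arms peak at opposite hours of the day. In 17 clock genes on the iris side 2 were higher and 4 lower. Arntl was at 27.8, 46.2, 39.7, 45.7 and 24.2 CPM in explants 1, 2, 4, 5 and 6 and at 5.75, 6.59 and 15.4 in irises (3.96-fold higher, adjusted p = 0.00773), and its partner Npas2 at 5.64, 3.94, 4.41, 3.27 and 2.78 against 0.793, 1.06 and 1.998 (3.08-fold, adjusted p = 0.0249). On the other arm, Ciart, a repressor of the clock, was at 26.9, 12.9, 15.4, 11.3 and 27.9 CPM against 122, 42.9 and 53.6 (3.87-fold lower, adjusted p = 0.0123). Per3 and Per2, of the period repressors, were at 92.1, 51.97, 81.9, 68.3 and 76.1 against 145, 163 and 164 and at 24.4, 18.8, 21.1, 19.2 and 23.7 against 42.6, 52.05 and 42.6 CPM, 2.12 and 2.14 times lower with adjusted p of 0.00219 and 0.000787. Tef, a D-box factor, was at 181, 156, 186, 168 and 176 against 359, 367 and 343 CPM (2.06-fold lower), and its adjusted p of 0.000118 was the smallest of any iris-side gene. Clock itself had a log2 fold change of 0.65 and the D-box factors Dbp and Hlf had -0.92 and -0.59, each past the adjusted p but not the fold limit. In these 6 called genes no explant overlapped an iris. Between 1 and 2 higher and between 1 and 5 lower calls were made in every alternative run, with 1 higher and 3 lower without iris 1 or 2, and 2 and 3 without explants 2 and 6. The time of day at which each tissue was taken is not given in the sources used here, beyond a 12-hour light cycle.

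**Figure D4:**
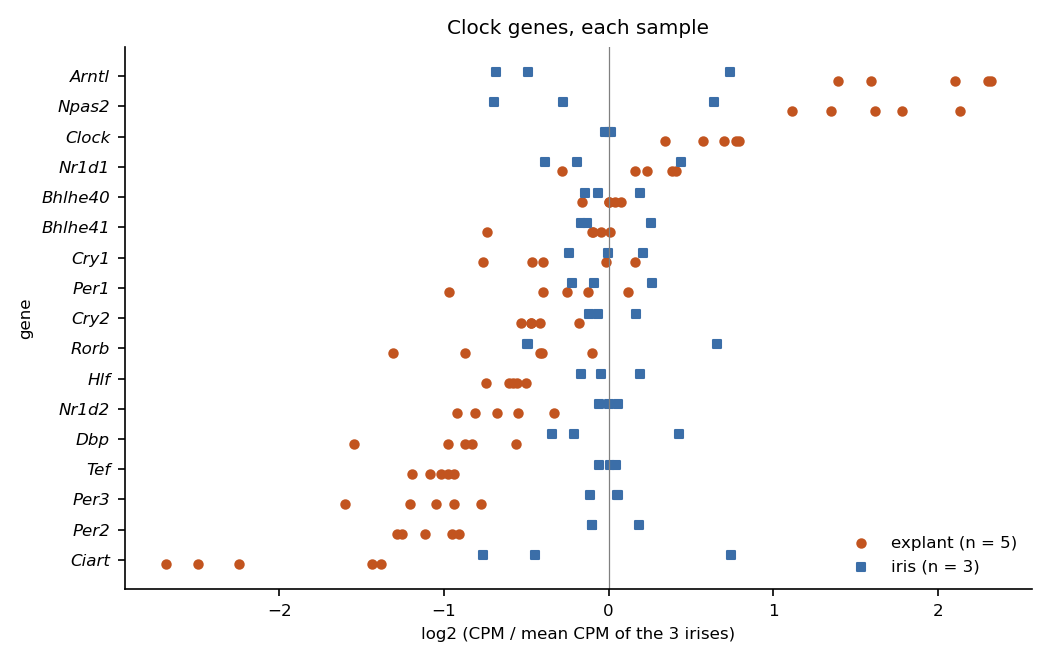
Log2 ratio of normalised CPM to the mean of the 3 irises for each iris-side clock gene, with explants as circles (n = 5) and irises as squares (n = 3). Arntl and Npas2 lie to the right of the irises and Ciart, Per2, Per3 and Tef to the left, with fold changes of 1.99, 1.62, -1.95, -1.09, -1.09 and -1.04 on the log2 scale.

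Promoter sequence is shown for Ciart and Tef, the lower clock genes with an E-box, CACGTG, among the bases searched. The 150 bases printed for each come from RefSeq, build GRCm38.p6, on the gene's strand up to the base before the transcription start, with E-boxes in capitals, for Ciart at chr3:95882229-95882378, minus strand and for Tef at chr15:81802523-81802672, plus strand.
Ciart: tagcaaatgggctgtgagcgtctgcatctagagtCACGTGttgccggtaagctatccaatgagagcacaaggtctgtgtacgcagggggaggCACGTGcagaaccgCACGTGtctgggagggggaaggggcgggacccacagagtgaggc
Tef: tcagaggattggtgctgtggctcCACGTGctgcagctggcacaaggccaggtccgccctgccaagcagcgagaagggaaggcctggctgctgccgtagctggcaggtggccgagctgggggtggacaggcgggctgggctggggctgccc

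The E-box reads the same on both strands. It was in the 250 upstream bases of 5 of 15 clock genes with a sequence (33.3%) and of 9.29% of tested iris-side genes. Over all promoters the share was 6.02%, and over all genes with a promoter it was 6.86%. Among all called iris-side genes the E-box was in 5 of 84 higher and 2 of 37 lower. The promoter of Ciart held 3 matches and that of Tef 1.

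The rule removes genes with more signal in liver, but it does not remove what cultured spheroids make. Of the 112 higher genes 37 had a higher mean TPM in the 2 in vitro spheroid samples than in the irises, against 1530 of the 12910 iris-side genes tested, and 9 of them were higher in the spheroids than in the explants. In the hepatocyte preparations 12 of the 112 lay above the iris mean. Of the 52 lower genes it was 0 in both. The 9 included Ccl2 and Cdkn1a, and also Cd24a, at 148 TPM in spheroids, 71.3 in explants and 29.2 in irises. Of the higher genes 36 of 112, and of the lower genes 37 of 52, were under 1 TPM in both spheroid samples. For 83 of the 112 every explant lay above all 11 other samples. The call and the rule already placed explants above irises and irises above livers in mean, so the 83 are not independent of that choice. The shares over all iris-side genes tested were not counted. Among the 36 were Oas2 and Tlr1, at 0.271 and 0.234 TPM in spheroids and 0.563 and 0.694 TPM in liver. The description of these genes as not from liver therefore held against liver tissue, by construction, while 37 of the 112 had more signal in the graft's starting material than in iris.

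**Figure D5:**
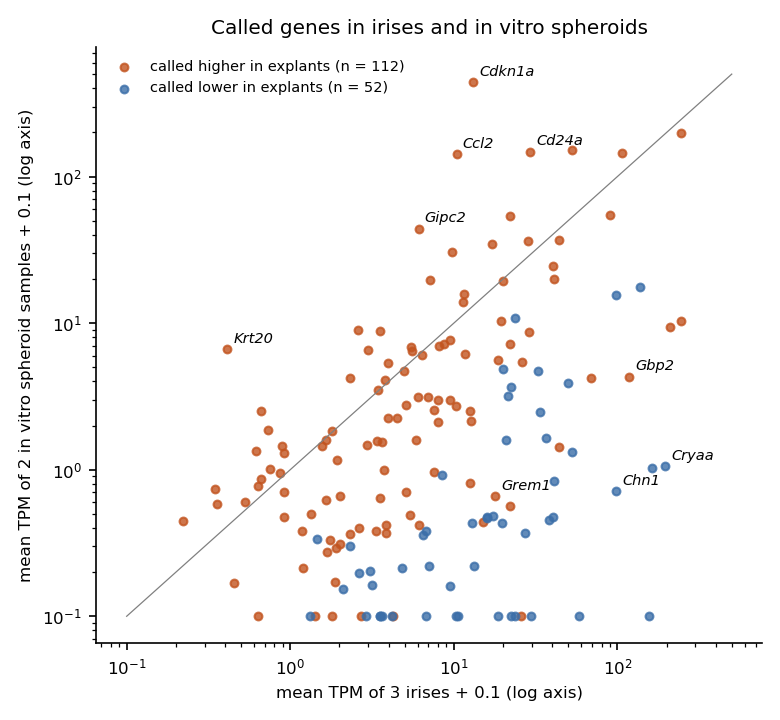
Mean TPM plus 0.1 in in vitro spheroids (n = 2) against that in irises (n = 3), on log axes, for iris-side genes called higher and lower in explants. All 52 lower genes lie below the diagonal of equal level, and 37 of the 112 higher genes lie above it.

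The higher genes also lay nearer to the limit of the rule. The median ratio of iris to liver TPM was 1.75 in the higher genes and 23.3 in the lower genes, against 2.89 over all iris-side genes tested. It was under 2 for 62 of the 112 higher genes and for 2 of the 52 lower ones. With a stricter rule of an iris level at least 4 times that of liver, 22 higher and 45 lower genes were left among 5164 tested. The reported rule gave 112 and 52 among 12910, so under the stricter rule lower calls outnumbered higher ones. Among the 22 were Adamts4, AI427809, Ccn1, Ccn5, Gbp2, Gbp3, Glipr2, Gm43802, Grem1, Hkdc1, Ifi202b, Itga2, Kif23, Krt20, Lmcd1, Lpcat2, Mycbpap, Npas2, Nusap1, Oas2 and Sgo1. No gene of the macrophage list was among them. Requiring that the irises also exceed the in vitro spheroids left 75 higher and 52 lower genes among 11380 tested. Exons of 48 of the 164 called genes, 31 higher and 17 lower, overlapped those of another gene, and the counts do not separate such pairs.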

How the data were processed

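Bulk RNA was sequenced in 16 samples of 3 technical libraries each, prepared with Smart-seq3 from total RNA. Per the submitters' processing notes and file headers, reads were aligned to the mouse genome (mm10, which is GRCm38) with TopHat2, duplicate reads were dropped by molecular identifier (UMI-tools), and the rest were counted on exons with featureCounts 1.4.6-p5 without a strand setting, a read over several genes counting for each. The deposited counts per gene are raw, and in 100% of entries the collapsed column equals the sum of its 3 libraries. The deposited TPM values, before the authors' subtraction of iris signal, were used only to select genes and to compare tissues. The ERCC spike rows (418 counts in all) were left out.

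Genes were filtered (filterByExpr) and scaled (TMM), then tested on the 5 explants and 3 irises with edgeR 4.0.16 in R 4.3.3 (glmQLFit, glmQLFTest), with Benjamini-Hochberg adjustment over all genes tested. The iris-side genes were then read out of that fit. Alternatives used DESeq2 1.42.0 and limma 3.58.1. The script was tested on simulated data. The authors' own comparison used limma, and none of its values was used. Members and lists were chosen with earlier results of these data known. Named genes were taken from called genes of at least 1 CPM whose groups did not overlap, 12 at each end of the log2 fold changes, and from 31 lists holding 584 names. The clock genes, both motifs and genes in no list were chosen after values were seen. Promoters were searched over 250 upstream bases. Replicates of a group are separate samples by label. Some genes are not reported here.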

Additional observations from a re-analysis of the deposited data

Results flagged for a closer look

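In the 5 explants each of the 164 called genes was examined for a sample far from the others, by a gap to the nearest sample of over 0.71 of the group's range (Dixon's 95% value). This marked 8 genes, or 4.88%, and chance marks about 1 in 20. In explant 6 the chromatin ATPase gene Atad2 was at 21.8 CPM against 13.5 in the next explant, the kinase gene Melk at 6.48 against 2.62, and Arhgap22, which overlaps Gm15512, at 17.95 against 9.52. In explant 2 Socs3 was at 107 CPM against 51.6, and the oncostatin M receptor gene Osmr at 77.7 against 45.5. In explant 4 the epithelial factor gene Elf3 was at 96.0 CPM against 37.8, and the claudin gene Cldn4 at 33.02 against 10.9. In explant 1 Sprn, a prion-family gene that overlaps Mtg1, was at 0.910 CPM against 1.47 in the next lowest explant.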

How the results depend on the processing

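The reported counts were 112 higher and 52 lower iris-side genes. They stayed within 1.5 times under RLE scaling, without a count filter, under DESeq2 (168 and 66), in a single fit of all 5 groups, with the first technical library alone, and with an iris minimum of 1 TPM or a hepatocyte preparation limit added to the rule. Scaling by library size alone gave 84 lower genes, and factors from iris-side genes only gave 65 higher and 31 lower. At least 10 counts in every sample gave 70 and 31, limma-voom 25 higher, and no fold limit 304 and 451. Under limma-voom the macrophage list had 1 higher call, the protease list 2 and the immediate early list 1. It gave 0 higher in the class II, T cell, chemokine, interferon, cell division, cholangiocyte, matrix, fibroblast and growth factor lists. The lens list had 3 lower calls there, and the clock genes 2 higher and 4 lower. The rule of 4 times liver left 5164 genes tested, with 22 higher and 45 lower. With the rule set on iris 1, 2 or 3 and the test on the other irises, the counts were 18, 24 and 22 higher and 29, 25 and 26 lower. Without explants 2 and 6, an alternative added after seeing the data, 64 were higher. Leaving out 1 sample gave 16 to 159 higher and 25 to 69 lower, the lowest counts without an iris. Explants and irises share only the replicate numbers 1 and 2. Their deviations correlated at 0.0527 and -0.102, while pairs with different numbers ran from -0.324 to 0.345. With 2 such pairs these values cannot show whether the numbers pair the samples. A fit with the replicate block gave 78 higher and 21 lower, of which 49 and 15 were among the reported calls. The cause of these shifts was not tested, other than fewer samples or genes by construction.

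Among the 24 genes of largest and smallest change, 357 of 483 values kept the call, 126 kept the direction only, and 0 changed direction. A gene that failed the count filter of a setting gave no value there. Chn1os1 and Krt20 kept the call wherever they were tested, and Krt20 was not tested under the limit of at least 10 counts in every sample. Counts limit low genes most, since a gene at 1 CPM rests on few reads at these depths, and p-values rest on 5 and 3 samples.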
